A study of Mus musculus with 8 samples.

Results

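The mitochondrial calcium uniporter genes were examined as a group of 6, taken by symbol from the 49040 genes of the count table: Mcub, Mcu, Micu2, Smdt1, Letm1 and Slc8b1. All 6 passed the filter on low counts, as did 14672 genes in all. The genes were selected on their place in mitochondrial calcium transport and with the measured knockout over wild-type changes of this table known. Those changes are therefore given as descriptions, and nothing is supported with them. Calls of the members in the fits over all genes are listed as descriptions too, and are no test of the members. RNA sequencing was done on mouse CD4+ T cells of 2 genotypes, Ikzf4-/- (Eos KO) and wild type, with 4 libraries each, numbered 1 to 4 in their titles. Both genotypes are labelled C57BL/6J, and both were cultured from naive cells for 72 h with antibodies to CD3 and CD28 bound to the plate, under conditions that polarise towards Th1. The labels give no age, no design of the Ikzf4 allele, and no word on whether a number stands for 1 animal. Errors and p-values therefore cover the spread among the libraries, part of which may be technical.

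The uniporter is a channel of the inner mitochondrial membrane that lets calcium into the matrix, driven by the membrane potential. Its pore is made of MCU, works only with the small adaptor EMRE (gene Smdt1), and is gated by calcium-binding proteins that include MICU2 and MICU3. MCUB, the product of Mcub, is a paralogue of MCU that joins the pore and lowers calcium uptake. Calcium leaves the matrix mainly through the sodium-calcium exchanger NCLX (gene Slc8b1), and LETM1 is an inner-membrane protein described as a cation-proton exchanger. In T cells, stimulation of the antigen receptor empties calcium from the endoplasmic reticulum and opens plasma membrane channels, and mitochondria take up part of that calcium.

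Library totals ran from 25227017 to 53149322 counts in knockout libraries and from 25893792 to 43958781 in wild-type libraries. Ikzf4, the deleted gene, had 75 to 139 counts in knockout libraries against 1386 to 1814 in wild-type libraries. T cell markers (8 of 8 genes detected, Cd4 and the Cd3 genes among them) summed to between 3066 and 3701 CPM (counts scaled to library size, with TMM factors) in knockout and between 3165 and 3474 CPM in wild type. The 4 markers of gamma-delta T cells summed to between 6.16 and 19.8 CPM in knockout and between 19.6 and 71.1 CPM in wild type; edgeR called 0 of them with genotype only (4 at an unadjusted p under 0.05, 4 by DESeq2), and all 4 were lower with the replicate number as a block. Mast cell and basophil markers reached 13.6 and 11.5 CPM in wild type 1 and wild type 3 and at most 0.624 CPM in any other library. B cell markers summed to 4.65 to 21.9 CPM in knockout and 4.45 to 14.7 CPM in wild type. The sums were 3.32 to 16.2 and 4.44 to 12.7 CPM for CD8 markers, and 3.35 to 12.4 and 3.05 to 10.8 CPM for NK cell markers. Xist stood at 503 CPM or more in both libraries numbered 2 and at 0.570 CPM or less in the rest.

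The promoters of the inhibitory paralogue and of the pore itself are shown because Mcub levels of the genotypes did not overlap while those of Mcu did, and because Ikaros-family zinc fingers such as Eos bind around a GGGAA core. Each window runs from 250 bases before to 50 bases after the RefSeq start (GRCm38.p6), on the gene's strand. Capitals mark GGGAA or its reverse complement TTCCC, which cannot overlap each other. The Mcub window lies at chr3:129970157-129970456 and the Mcu window at chr10:59616643-59616942, both on the minus strand.
Mcub: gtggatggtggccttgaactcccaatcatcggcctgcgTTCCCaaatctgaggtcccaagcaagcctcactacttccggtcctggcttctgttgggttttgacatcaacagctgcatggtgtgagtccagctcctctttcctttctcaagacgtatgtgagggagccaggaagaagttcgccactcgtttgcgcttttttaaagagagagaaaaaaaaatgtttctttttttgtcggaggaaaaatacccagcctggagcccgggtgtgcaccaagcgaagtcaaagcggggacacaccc
Mcu: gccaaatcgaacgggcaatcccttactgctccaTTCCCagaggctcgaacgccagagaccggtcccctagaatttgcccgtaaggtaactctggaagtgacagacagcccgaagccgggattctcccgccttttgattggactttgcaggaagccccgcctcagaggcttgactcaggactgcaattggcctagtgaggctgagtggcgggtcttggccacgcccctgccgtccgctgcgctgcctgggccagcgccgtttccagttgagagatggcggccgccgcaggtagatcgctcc
Both windows held 1 match, as did that of Micu2; Smdt1 had 4 and Letm1 had 0. Of all 32851 windows in the table, 62.7% held at least 1 match, so a match sets neither gene apart.

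Mcub RNA was lower in every knockout library than in any wild-type library. Mcub stood at 7.81, 6.56, 6.90 and 4.87 CPM in knockout libraries 1 to 4, against 20.8, 21.96, 20.9 and 23.1 CPM in wild-type libraries 1 to 4. The knockout values lay far below the narrow wild-type range, with knockout 4 the lowest of all. The mean was 6.54 ± 1.23 CPM in knockout and 21.7 ± 1.10 CPM in wild type (SD, n = 4 each). The knockout mean was 30.1% of that in wild type, or 3.32-fold lower. On the log2 scale Mcub changed by -1.73 ± 0.16 (edgeR, SE). The smallest count behind these values was 129 in knockout 4 (95% exact Poisson interval 108 to 153, counting error only), and the largest was 917 in wild type 1. In the authors' deposited table, whose sign is wild type over knockout, the log2 fold change of Mcub was 1.73 with a standard error of 0.17. In bulk RNA, fewer cells that express a gene and less of its RNA per cell cannot be told apart.

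Mcub was the 1 of the 6 members that edgeR called with genotype as the only term (adjusted p under 0.05 over all genes), where 0.157% of all genes tested were called (0.102% lower and 0.0545% higher in knockout). With the replicate number as a block the member called was again Mcub, where 6.71% of all genes were called (4.01% lower and 2.69% higher). The same threshold was passed by 1.46% of genes in the authors' deposited table. In 2.49% of genes every knockout library lay below every wild-type library, as for Mcub, and in 2.47% above. These counts follow from a comparison that was known when the members were picked, and nothing is read from them.

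**Figure D1:**
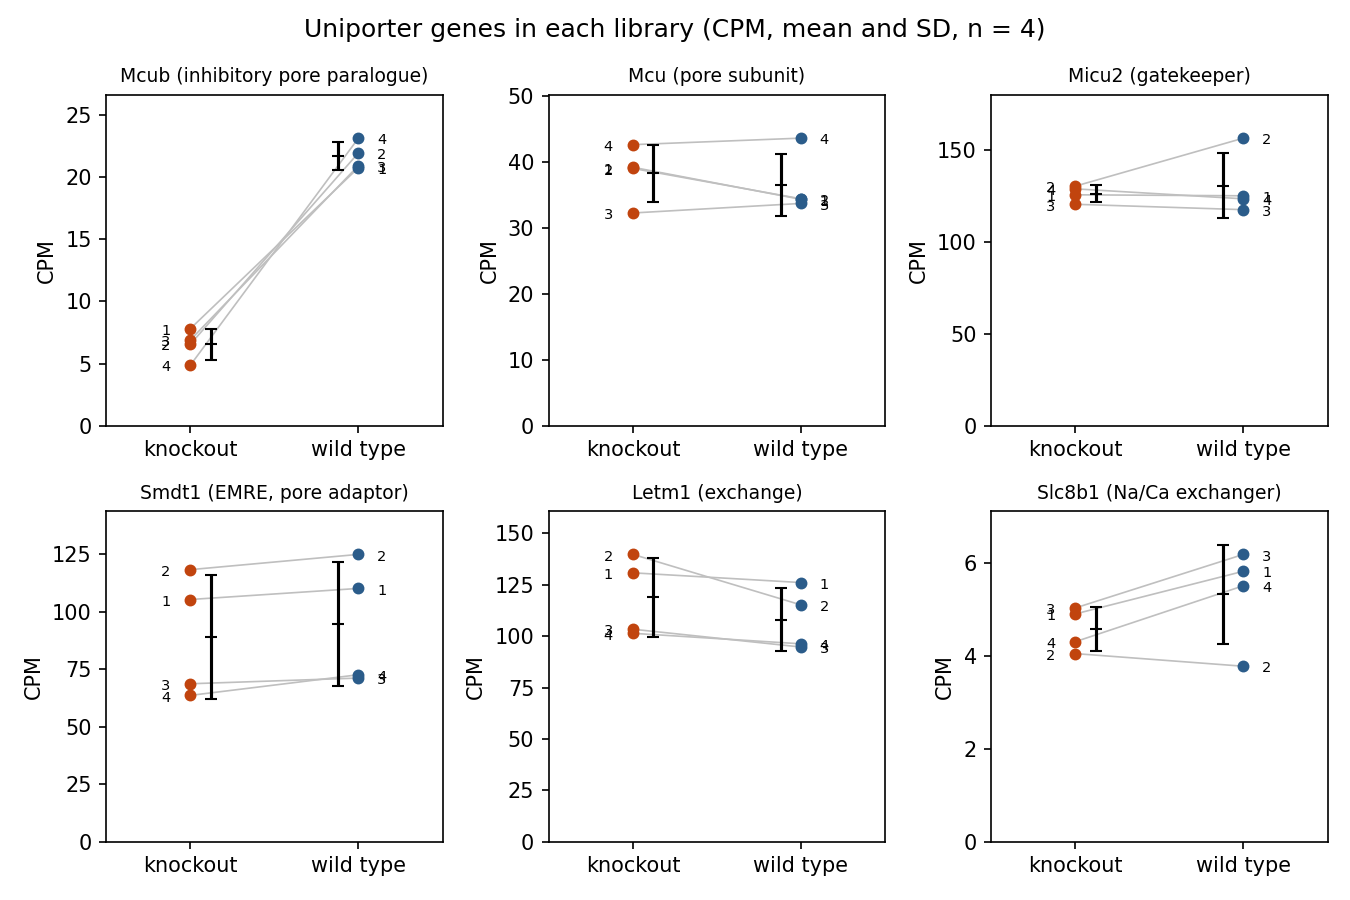
CPM of the 6 members in each library, knockout left and wild type right in each panel, with grey lines joining libraries of the same number and black bars giving the mean and SD of 4 libraries. Mcub lies between 4.87 and 7.81 CPM in knockout and between 20.8 and 23.1 CPM in wild type, whereas the groups overlap in the other 5 panels.

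The gamma-delta markers were also lower in knockout. Their sums were 18.0, 19.8, 11.2 and 6.16 CPM in knockout libraries 1 to 4, against 71.1, 54.8, 44.8 and 19.6 CPM in wild-type libraries 1 to 4. Knockout 4 was the lowest of its group in both the marker sum and Mcub, whereas wild type 4 had the lowest marker sum and the highest Mcub level of its group. The marker sums do not count cells, and their relation to the Mcub difference was not tested.

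Mcu, which encodes the pore subunit, overlapped between genotypes. Its levels were 39.1, 39.0, 32.2 and 42.6 CPM in knockout libraries 1 to 4, against 34.3, 34.4, 33.7 and 43.6 CPM in wild-type libraries 1 to 4. The libraries numbered 4 were the highest of each group. The log2 change was 0.07 ± 0.13 without the block and 0.07 ± 0.08 with it (edgeR, SE).

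The share of inhibitory RNA in the sum of both pore paralogues was lower in every knockout library than in any wild-type library. Per kilobase of exon, Mcub made up 51.2%, 47.0%, 53% and 37.6% of the summed Mcub and Mcu level in knockout libraries 1 to 4, against 76.1%, 77.1%, 76.6% and 73.7% in wild-type libraries 1 to 4. Knockout 4 had the lowest share, and the groups did not overlap. The mean share was 47.2 ± 6.88% in knockout and 75.9 ± 1.52% in wild type (SD, n = 4 each). The log2 ratio of Mcub to Mcu, taken as CPM plus a pseudocount of 1, averaged -2.39 ± 0.36 in knockout and -0.72 ± 0.12 in wild type, a difference of -1.67. The exon lengths come from GENCODE M21 (1318 bases for Mcub and 6936 for Mcu, counting exons of all transcripts), so the shares depend on those lengths, while the difference of the log2 ratios does not. By counts not divided by length, Mcub made up 10.3% to 17.6% of the sum in knockout libraries. In wild-type libraries it made up 34.7% to 39.0%, so Mcub was the smaller part there. Which paralogue had more RNA in wild type therefore depends on the length scaling. RNA shares do not give the make-up of the channel protein.

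The gatekeeper Micu2 and the adaptor Smdt1 were the most abundant members per length, and both overlapped between genotypes. Micu2 had 126, 130.3, 120.5 and 129 CPM in knockout libraries 1 to 4, against 125, 156, 118 and 123 CPM in wild-type libraries 1 to 4. Wild type 2 stood above the other libraries. The log2 change of Micu2 was -0.05 ± 0.11 (edgeR, SE), and between -0.10 and 0.05 with single libraries left out. With the block it was -0.04 ± 0.08. Smdt1 had 105, 118, 68.7 and 63.6 CPM in knockout libraries 1 to 4, against 110, 125, 71.1 and 72.6 CPM in wild-type libraries 1 to 4. These values split by number and not by genotype: libraries numbered 1 and 2 held 105 to 125 CPM, and those numbered 3 and 4 held 63.6 to 72.6 CPM. The log2 change of Smdt1 was -0.09 ± 0.26, and -0.10 ± 0.07 with the block, with a lower value in knockout in 4 of 4 same-numbered pairs. Without the block and with single libraries left out it ran from -0.26 to 0.07. Smdt1 shares 245 of its 1479 exon bases with a gene on the same strand, named Fam109b in the count table, whose own counts were 6 to 17 in knockout and 20 to 37 in wild type, against at least 1684 for Smdt1 in any library.

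The exchange genes Letm1 and Slc8b1 overlapped between genotypes too. Letm1 had 131, 140, 103 and 101 CPM in knockout libraries 1 to 4, against 126, 115, 94.8 and 96.3 CPM in wild-type libraries 1 to 4. It followed the split by number seen for Smdt1, with 115 to 140 CPM in libraries numbered 1 and 2 and 94.8 to 103 CPM in those numbered 3 and 4. Its log2 change was 0.14 ± 0.14, and 0.13 ± 0.07 with the block, with 0 of 4 same-numbered pairs lower in knockout. Slc8b1, the least abundant member, had 4.90, 4.05, 5.03 and 4.31 CPM in knockout libraries 1 to 4, against 5.82, 3.78, 6.18 and 5.51 CPM in wild-type libraries 1 to 4. The libraries numbered 2 were the lowest of each group. The log2 change of Slc8b1 was -0.22 ± 0.20 (edgeR, SE), from 114 to 257 counts per library, and ran from -0.35 to -0.15 with single libraries left out. With the block it was -0.20 ± 0.15.

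Set per kilobase of exon, the order of the members differed between genotypes in the place of Mcub. This depends on the exon lengths used: in CPM the order of the member means was the same in both genotypes. In CPM Mcub stood below Mcu, at 6.54 against 38.2 in knockout and 21.7 against 36.5 in wild type. In knockout, Mcub had 4.96 ± 0.93 CPM per kilobase, and its range of 3.70 to 5.93 overlapped that of Mcu (4.65 to 6.14). In wild type, Mcub had 16.5 ± 0.83 CPM per kilobase, above Letm1 (11.2 ± 1.57) and Mcu (5.26 ± 0.68) with no overlap. The other members kept their order in both genotypes: Smdt1 was highest (60.1 ± 18.2 in knockout and 64.0 ± 18.3 in wild type), followed by Micu2 (41.0 ± 1.42 and 42.4 ± 5.68), Letm1 (12.3 ± 2.01 and 11.2 ± 1.57), Mcu and, lowest, Slc8b1 (1.32 ± 0.14 and 1.54 ± 0.31). The lowest Smdt1 value was 43.0 in knockout, just above the highest Micu2 value of 42.3, and 48.1 in wild type, below the highest Micu2 value of 50.7, so this pair overlapped in wild type.

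**Figure D2:**
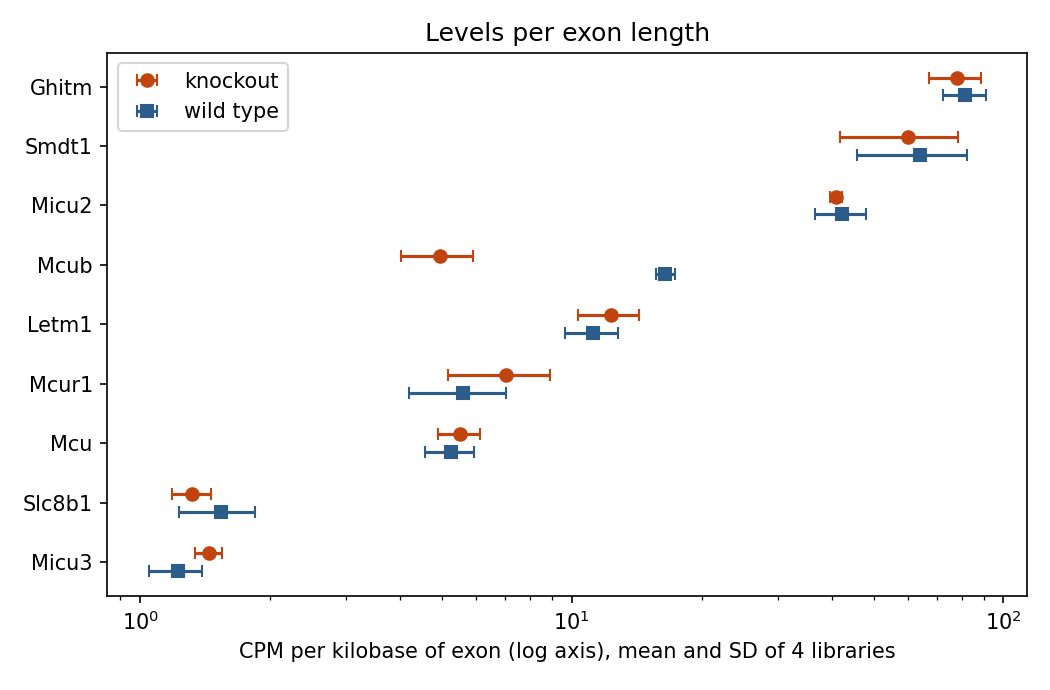
Mean and SD over 4 libraries of CPM per kilobase of exon (log axis) for the members and for Micu3, Mcur1 and Ghitm, with knockout circles above wild-type squares for each gene. Mcub is at 4.96 in knockout and 16.5 in wild type; the other genes have overlapping bars.

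The members varied over the 8 libraries in different ways. For Mcub, 95.9% of the sum of squares of log2 CPM lay between the genotypes and 1.13% between the numbers. For the other 5 members the numbers took the larger part, from 66.7% for Micu2 to 97.8% for Smdt1, and the genotypes between 1.64% and 17.6%. The medians over all genes tested were 8.996% for genotype and 65.2% for number, where the number has 3 degrees of freedom and genotype 1. After the genotype means were taken out, Smdt1 and Letm1 moved together over the 8 libraries (Pearson r = 0.95), and Micu2 and Slc8b1 moved against each other (r = -0.97). Mcub correlated with the other members between r = -0.20 and 0.39. These are descriptions over libraries that share numbers, and wild type 2 had both the highest Micu2 and the lowest Slc8b1 level.

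**Figure D3:**
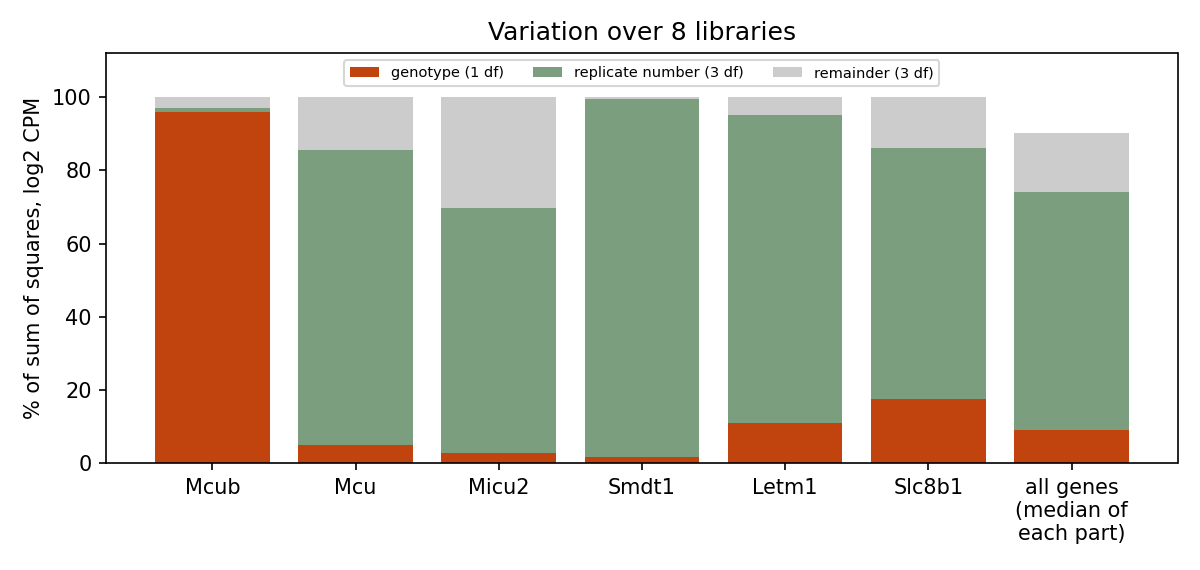
Share of the sum of squares of log2 CPM over the 8 libraries that lies between genotypes, between replicate numbers and in the remainder, for each member and as the median of each part over all genes tested (the medians need not sum to 100%). Mcub stands at 95.9% for genotype, whereas Smdt1 stands at 97.8% for the number.

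The genes whose log2 CPM was most like that of Mcub over the 8 libraries, among genes of at least 10 CPM, were Slc35b1 (r = 0.99), Rpl34 (0.99), Fam46c (0.98), Anxa6 (0.97) and Cpeb4 (0.96). The lowest correlations were those of Tmem143 (-0.98), Abcc5 (-0.97) and Nrp1 (-0.96). With 4 libraries on each side these values mainly reflect the difference between the genotypes, and after the genotype means were taken out they were 0.81, 0.75, 0.71, 0.56 and 0.17, and -0.45, -0.60 and -0.44. Rpl34, a ribosomal protein gene, has processed pseudogenes listed under its name in GENCODE M21, and how reads with several matches were counted is not stated, so its counts are uncertain. Rpl34 lies on chromosome 3 like Mcub. The symbol Fam46c matched no gene of GENCODE M21, so its chromosome is not given here.

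The genes around Mcub were then looked at, a step chosen after the data were seen. Mcub occupies chr3:129914960-129970206 on the minus strand (GENCODE M21, GRCm38), has 8 separate exon blocks, and overlaps no other annotated gene. Of 17 other genes tested whose start lies within 2 Mb of its own, edgeR called 1 with genotype only (5.88%, against 0.157% of all genes) and 4 with the block (23.5%, against 6.71%). The called gene was Rpl34, with its start 760.2 kb away. Rpl34 had 297, 270, 273 and 254 CPM in knockout libraries 1 to 4, against 569, 575, 628 and 604 CPM in wild-type libraries 1 to 4, a change of -1.12 ± 0.08 on the log2 scale (edgeR adjusted p = 0.000561). The groups did not overlap.

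The next genes tested on either side of Mcub overlapped between the genotypes. They and the genes named below were picked after their values were seen. Casp6, which encodes an executioner caspase, had 28.7, 17.8, 86.0 and 50.1 CPM in knockout libraries 1 to 4, against 48.0, 19.5, 158 and 159 CPM in wild-type libraries 1 to 4. It was lower in knockout in 4 of 4 pairs (-1.08 ± 0.69, edgeR adjusted p = 0.761; -0.87 ± 0.20 with the block, adjusted p = 0.0395). Sec24b, a coat protein gene of vesicles leaving the endoplasmic reticulum, changed by 0.15 ± 0.19 (edgeR adjusted p = 0.929). Besides Rpl34 and Casp6, the block called Elovl6, a fatty acid elongase gene (-0.47 ± 0.07, adjusted p = 0.00813), and Papss1, which makes the sulphate donor (0.76 ± 0.08, adjusted p = 0.00141). Within 6 Mb, 8 of 49 genes were called with the block (16.3%) and 2 with genotype only (4.08%), Rpl34 and the gene model Gm43429 (-2.80 ± 0.37, adjusted p = 0.0255). Gm43429 was low, with 0.252 ± 0.093 CPM in knockout and 1.75 ± 0.46 CPM in wild type (SD, n = 4 each). Around each of the other 5 members, 0 genes within 6 Mb were called by edgeR with genotype only, and 4.24% to 13.1% with the block. Within 2 Mb of them the block called 2.17% to 16%, the highest being 4 of 25 genes around Mcu, against 4 of 17 around Mcub. Over all genes 0.157% were called with genotype only and 6.71% with the block, so 0 calls with genotype only around a member say little. Sequence that differs near Mcub between the mice and the missing Ikzf4 cannot be told apart by this design.

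**Figure D4:**
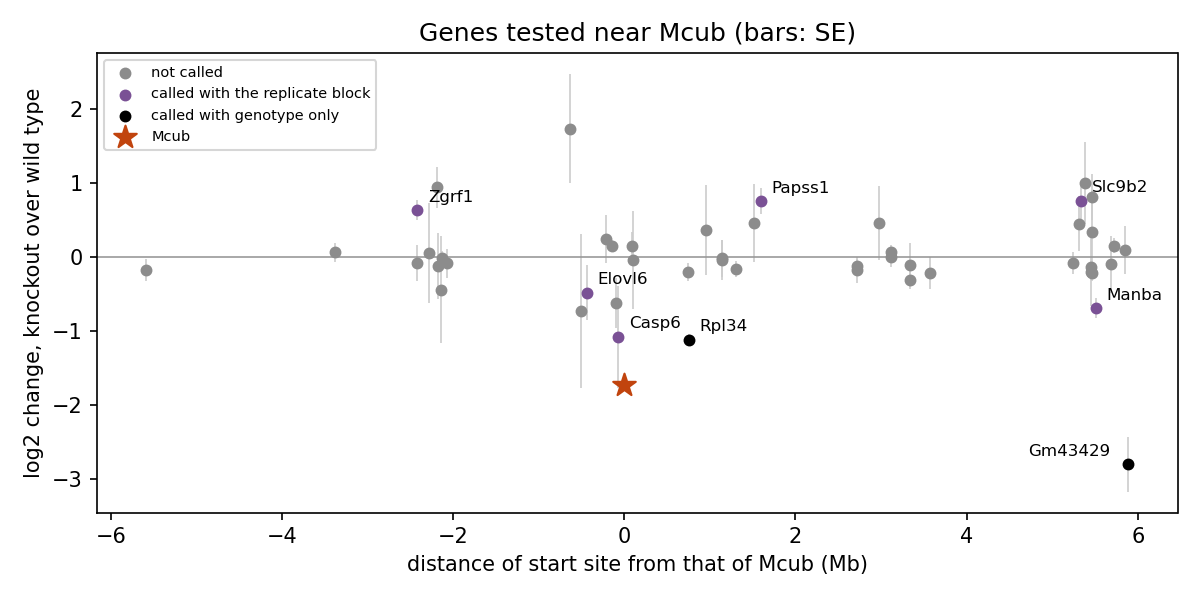
Log2 change, knockout over wild type, of the genes tested within 6 Mb of Mcub against the distance of their start sites (bars: SE), coloured by whether edgeR called them. Rpl34 at -1.12 and Gm43429 at -2.80 are called with genotype only.

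Among 20 other measured genes of mitochondrial calcium uptake and exchange, edgeR called 0 with genotype only (3 at an unadjusted p under 0.05; 0 by DESeq2 without the block), with a median log2 change of -0.08 against -0.00314 over all genes. Over all genes 0.157% were called with genotype only, so 0 calls in a list of this size say little. With the block 1 rose and 1 fell (10%, against 6.71% of all genes). Mcur1, a regulator of uniporter assembly, rose by 0.32 ± 0.08 on the log2 scale (adjusted p = 0.0396; 0.781 without the block). Its levels were 48.2, 68.2, 37.3 and 45.3 CPM in knockout libraries 1 to 4, against 40.1, 53.6, 31.1 and 33.9 CPM in wild-type libraries 1 to 4, higher in knockout in every same-numbered pair although the groups overlap. Its call with the block was lost without the pair numbered 1, 3 or 4. Slc25a24, a calcium-dependent carrier of ATP-magnesium and phosphate, changed by -0.67 ± 0.12 (adjusted p = 0.0136; 0.519 without the block), with 21.8 ± 6.04 CPM in knockout and 34.8 ± 9.33 CPM in wild type. The gatekeeper Micu3 (0.25 ± 0.15, adjusted p = 0.758) was not called. Neither were Ghitm, a further inner-membrane exchanger gene (-0.07 ± 0.12), and Ppif, which encodes the cyclophilin of the permeability transition pore (0.30 ± 0.11, adjusted p = 0.502); DESeq2 with the block called Ppif (adjusted p = 0.0301).

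Of 13 genes of calcium-sensitive mitochondrial dehydrogenases and their regulators, edgeR called 0 with genotype only and 0 with the block. Over all genes these fits called 0.157% and 6.71%, so 0 calls in lists as small as those here say little. At an unadjusted p under 0.05 (edgeR, genotype only) there were 0, and DESeq2 called 0. The log2 changes of the 13 genes ran from -0.15 to 0.11. Of 23 measured genes of mitochondrial biogenesis and import, 0 were called with genotype only (1 at an unadjusted p under 0.05; 0 by DESeq2), and their median was 0.07. With the block 1 of the 23 was called (4.35%, against 6.71% of all genes). This gene, Pprc1, a coactivator of nuclear genes for mitochondria, rose (0.38 ± 0.08, adjusted p = 0.0247; 0.344 without it), with 153 ± 3.40 CPM in knockout and 118 ± 14.2 CPM in wild type. Tfam, which packages mitochondrial DNA, changed by 0.18 ± 0.13 (adjusted p = 0.819). Of 12 genes of contacts between the endoplasmic reticulum and mitochondria, edgeR called 0 without or with the block (1 at an unadjusted p under 0.05 without it; 0 by DESeq2).

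Of 25 measured calcium channels, pumps and store sensors of the endoplasmic reticulum and plasma membrane, 0 were called with genotype only (2 at an unadjusted p under 0.05; 0 by DESeq2), and 2 fell with the block (8%, against 6.71% of all genes called and 4.01% called lower). Atp2b4, a calcium pump of the plasma membrane, changed by -0.62 ± 0.13 (adjusted p = 0.0305; 0.819 without the block). It had 137, 62.9, 250 and 179 CPM in knockout libraries 1 to 4, against 189, 70.9, 413 and 384 CPM in wild-type libraries 1 to 4, a wide spread by number. Trpv2, a cation channel gene, changed by -0.43 ± 0.08 (adjusted p = 0.0178; 0.55 without the block). Both calls were lost without the pair numbered 1, 3 or 4. The channel gene Orai1 (0.20 ± 0.20, adjusted p = 0.888) and the store sensor Stim1 (0.08 ± 0.09, adjusted p = 0.908) were not called. Over all genes 0.157% were called with genotype only, so 0 calls in this list or the next say little. Of 15 calcineurin and calmodulin genes, 0 were called with genotype only (2 at an unadjusted p under 0.05; 0 by DESeq2), and 3 fell with the block (20%, against the same 6.71% and 4.01% of all genes): Ppp3cc, a catalytic chain of calcineurin (-0.51 ± 0.07, adjusted p = 0.00471), the kinase Camk4 (-0.57 ± 0.09, adjusted p = 0.00819) and Calm2 (-0.36 ± 0.07, adjusted p = 0.0193), one of the genes that encode the same calmodulin protein. Without the block their adjusted p-values were 0.759, 0.621 and 0.334. The call of Calm2, like that of Pprc1, was lost without the pair numbered 3 or 4. The gamma-delta T cell markers were lower in knockout beside these genes, and their part in these changes was not tested.

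**Figure D5:**
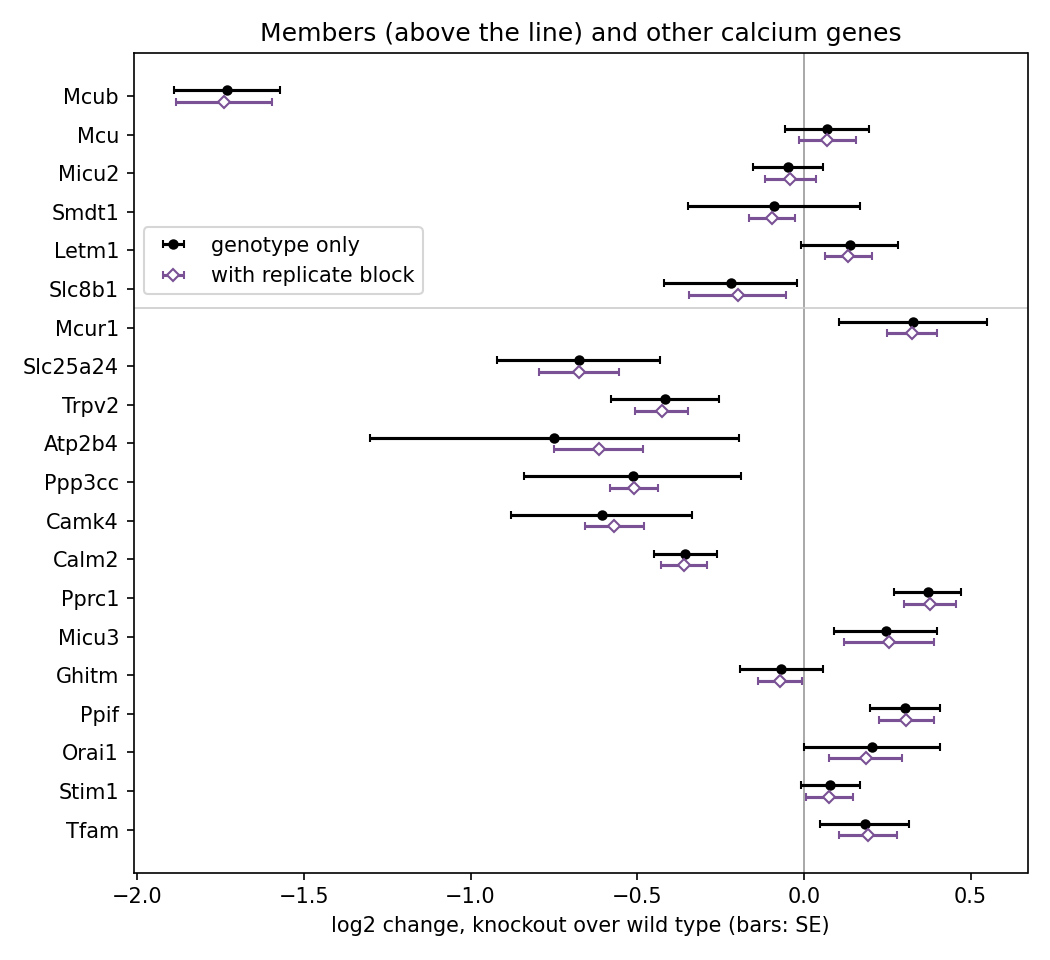
Log2 change, knockout over wild type, with SE, for the 6 members above the line and the other calcium and mitochondrial genes named in the text below it, from edgeR with genotype only (filled) and with the replicate block (open). Mcub lies at -1.73, and the other 5 members lie within 0.22 of 0.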

How the data were processed

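RNA of 4 knockout and 4 wild-type libraries was sequenced. The authors deposited whole-number read counts per gene; the submitters' processing notes name GRCm38, DESeq2, Subread 1.5.2 with featureCounts, and STAR 2.5.2. No source here states the alignment settings, the annotation, the strand setting or how multiply mapped reads were counted. Beside the counts stands, per the file headers, a DESeq2 comparison by the authors: log2 fold changes (wild type over knockout), a standard error and test statistic (each a score here), p-values, and a mean normalized count (a signal).

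The members and gene lists were chosen with earlier results of these data known. Counts were tested with edgeR 4.0.16 in R 4.3.3 (quasi-likelihood, filterByExpr, TMM, genotype as the only term, Benjamini-Hochberg over all 14672 genes, threshold 0.05); DESeq2 1.42.0 was an alternative. CPM values use TMM factors and log2 CPM a prior count of 2. Each SE given with edgeR was derived as the absolute log2 change divided by the square root of the F statistic of its test. Deviations from the group means correlated across genes between libraries of the same number (correlations of 0.61 to 0.73, highest other correlation 0.54). The number was therefore used as a block in alternative fits. This pairing comes from the data and not from the labels. Some libraries of different numbers also correlated, and a coarser split of the numbers was not tested as the block. Values with the number as a block are given for the members other than Mcub. They are also given where the block changed a call for named calcium or mitochondrial genes, or for genes within 2 Mb of Mcub. Slc35b1, Anxa6, Cpeb4, Tmem143, Abcc5, Fam109b, Zgrf1 and Manba were likewise called by edgeR only with the block, and their block values are not given. Libraries of a group differed beyond sampling noise (chi-square per degree of freedom of 16.1 or more). Named genes are the members, up to 3 called genes per list and direction in either fit, 8 fixed genes (1 of them not reported here), and the 5 highest and 3 lowest correlations with Mcub. The fits were also run on simulated counts, and the outcome is not given here. For the fit with genotype only, those counts held no differences by replicate number, unlike the real data. That run therefore cannot show how this fit behaves where libraries differ by number. Exon lengths and positions come from GENCODE M21 (14542 of 14672 tested symbols matched), and promoters from RefSeq, which matched 5 members (not Slc8b1).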

Additional observations from a re-analysis of the deposited data

Results flagged for a closer look

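In 4 of 62 groups of 4 libraries looked at, 1 library stood far from the other 3 of its group; chance alone sets apart about 1 group in 20. Mcu was at 43.6 CPM in wild type 4, against 33.7 to 34.4 CPM in the other wild-type libraries. Ppif was at 71.9 CPM and Pprc1 at 148 CPM in knockout 2, the highest Ppif value and the lowest Pprc1 value of the group. Fam46c was at 153 CPM in wild type 4, the lowest wild-type value.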

How the results depend on the processing

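The log2 change of Mcub ran from -1.86 to -1.59 over all alternatives, and the changes of all 6 members moved by less than the spread between libraries. With single libraries left out, the difference in the Mcub to Mcu log2 ratio ran from -1.78 to -1.50. With the replicate block it is the mean of same-numbered differences. By arithmetic this equals the difference of the group means, -1.67, so it is no separate check. The number of genes called moved most: 23 with genotype only, 225 by DESeq2, 984 with the replicate block and 1385 by DESeq2 with the replicate block. It was 14 to 24 without single libraries (15 without knockout 4, 14 without wild type 3 and 14 without wild type 4), and, with the block and a pair left out, 622, 1437, 398 and 529 without numbers 1, 2, 3 and 4.

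For the lists, 0 calls with genotype only became, with the replicate block and by DESeq2 with it, 2 and 3 (mitochondrial calcium), 2 and 3 (endoplasmic reticulum and plasma membrane), 3 and 3 (calcineurin and calmodulin), and 1 and 1 (biogenesis). With pairs left out these ran from 1 to 2, 0 to 5, 2 to 3 and 0 to 2, and contacts from 0 to 1. Without single libraries every list stayed at 0. Genes called within 2 Mb of Mcub numbered 1 to 5. Nrp1, called with genotype only, lost its call without knockout 1, 2 or 4 or wild type 1, 3 or 4. The causes were not tested. Slc8b1 and Mcub, with 114 and 129 counts at the lowest, have the least depth.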
